A study of Mus musculus with 6 samples.

Results

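The 33 genes described here encode enzymes of cholesterol synthesis and the proteins that sense, regulate and move sterols. They were listed by pathway, and the pathway was chosen by the measured fall of 1 probe set of Fdft1, squalene synthase, in Foxf2 mutant brains. That value therefore supports nothing here, and the question was whether the enzymes driven by SREBP2 moved together with it. Probe sets annotated to exactly 1 gene were found for 31 of the 33, giving 67 of the 45037 probe sets of the array without its controls. Acat2 and Nr1h2 had no such probe set and were not analysed here. Of the 67, 59 passed a filter on dim signal and 8 did not, and each of the 31 genes kept at least 1 tested probe set.

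The samples were whole brains of late-gestation mouse embryos (E18.5) on a C57/bl6 background, 3 of them wild-type and 3 Foxf2 mutant, each measured on 1 Affymetrix array. The labels call the second group Foxf2 mutant and do not describe the allele, the litter or the sex, nor say whether an array held 1 embryo or several, so any p-value reflects only how these 6 arrays scatter, which may be technical. Foxf2 is a forkhead transcription factor gene known from brain pericytes. Values are the authors' MAS5 intensities, a linear brightness scale on which every array has the same trimmed mean. Fold changes are differences of log2(intensity + 16), mutant minus wild type, which understate the change of dim genes.

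Cholesterol in the brain is made locally, because plasma lipoproteins hardly cross the blood-brain barrier. The mevalonate pathway turns acetyl-CoA into isoprenoid units, squalene synthase commits these to sterols, and a chain of sterol enzymes ends at cholesterol. When sterols in the endoplasmic reticulum are low, SCAP escorts SREBP2 to the Golgi, where it is cleaved and then switches on most genes of the pathway. INSIG proteins hold SCAP back when sterols are plentiful. Oxysterols act through LXR receptors, which induce exporters such as ABCA1 and ABCG1.

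SREBP2 binds sterol regulatory elements together with the partner factors NF-Y and Sp1, so the bases before the start sites were read from RefSeq sequences of build GRCm38.p6, in which 27 of the 33 genes had an entry. The start is that of each promoter entry, and for 18 of the 27 genes the first entry matched the annotated gene start exactly. The 250 bases before the start are printed for 4 genes. Hmgcs1 and Idi1 are shown because their probe sets gave different sizes, Sc5d because it held the largest difference among the tested probe sets of the 31 genes, and Abca1 as an LXR target that read higher. Capitals mark matches to TCACNCCAC, the core of a sterol regulatory element, and to CCAAT, the NF-Y box, which appears as ATTGG when it lies on the other strand.
Hmgcs1 (chr13:119690101-119690350, + strand): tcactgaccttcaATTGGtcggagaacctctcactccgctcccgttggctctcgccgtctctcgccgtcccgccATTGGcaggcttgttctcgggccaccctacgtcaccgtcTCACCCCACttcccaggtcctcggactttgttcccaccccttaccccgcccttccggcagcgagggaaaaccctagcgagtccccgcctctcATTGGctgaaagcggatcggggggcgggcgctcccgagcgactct
Idi1 (chr13:8885356-8885605, + strand): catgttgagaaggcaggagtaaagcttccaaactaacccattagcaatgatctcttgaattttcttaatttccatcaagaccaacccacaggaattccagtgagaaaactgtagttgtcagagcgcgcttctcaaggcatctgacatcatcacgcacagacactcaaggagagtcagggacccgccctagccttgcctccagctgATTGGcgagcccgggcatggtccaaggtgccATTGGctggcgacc
Sc5d (chr9:42264301-42264550, - strand): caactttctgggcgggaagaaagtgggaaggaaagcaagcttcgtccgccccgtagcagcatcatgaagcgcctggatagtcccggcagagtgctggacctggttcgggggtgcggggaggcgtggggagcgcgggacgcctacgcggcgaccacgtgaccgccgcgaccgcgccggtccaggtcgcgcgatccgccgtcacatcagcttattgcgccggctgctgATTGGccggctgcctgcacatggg
Abca1 (chr4:53159896-53160145, - strand): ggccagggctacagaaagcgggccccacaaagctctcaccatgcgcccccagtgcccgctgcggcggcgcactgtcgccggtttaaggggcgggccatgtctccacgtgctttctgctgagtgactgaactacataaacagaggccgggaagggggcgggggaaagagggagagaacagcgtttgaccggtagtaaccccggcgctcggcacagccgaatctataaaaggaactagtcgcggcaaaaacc

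Hmgcs1 held the only sterol element core among the 27 genes, 137 to 129 bases before the start, with 3 NF-Y boxes. Idi1 held 2 NF-Y boxes, Sc5d held 1 and Abca1 none. The Sp1 core GGGCGG was searched too and is left in lower case; in these 4 sequences no match of 1 motif overlapped a match of another. On both strands, 15 of the 16 SREBP2-driven genes in the table held CCAAT (93.8%), against 37.5% of all 27025 genes with an entry and 40.6% of the 10153 that were also tested on the array. GGGCGG was also found in 15 of the 16 (93.8%), against 35.4% of all genes and 64.6% of the tested ones. This order turned within 100 bases of the start, where 7 of the 16 (43.8%) held GGGCGG against 52.0% of the tested genes, while CCAAT was in 13 of the 16 (81.2%) against 25.8%. TCACNCCAC was found in 1 of the 16 (6.25%), against 1.22% of all genes. The promoters of the 16 genes were richer in G and C, with a median of 62.8% against 52.4% over all entries, and close to the 60% of the tested genes. A match is a description of letters in this window and shows no binding.

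Median intensity over the array was 23.1 to 23.6 in the wild-type and 24.3 to 25.5 in the mutant group, so every mutant array was slightly above every wild-type array. The brighter Foxf2 probe set read 13.8 to 24.4 in wild-type and 3.31 to 8.06 in mutant arrays, too dim for the filter. Neuronal markers matched the tissue label, with 12 of 12 above the filter. Single arrays stood apart in a few genes. Mutant array 2 read 260 for the Y-linked Eif2s3y, at most 2.12 elsewhere. The X-linked Xist read 12.97 in mutant array 2, 1002 in mutant array 1 and 1956 to 2400 in the others, and its part in the X-linked members Ebp and Nsdhl was not tested. Summed pituitary markers read 1794 in wild-type array 3 and 35.5 to 262 in the others, and summed muscle markers reached 1205 in mutant array 3, the other arrays lying at 76.0 to 98.9. Whole-brain RNA cannot tell fewer cells of a type from less RNA per cell.

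Over the whole array 105 of 27022 tested probe sets passed an adjusted p of 0.05 (limma, Benjamini-Hochberg), which is 0.389%, with 0.366% higher and 0.0222% lower in the mutant. Of the 59 probe sets of sterol genes 1 passed, the Fdft1 probe set that led to the list, which is 1.69%, and 0 passed in the higher direction. At an unadjusted p under 0.05, 4 of the 59 read higher and 8 lower, where the whole array had 7.76% higher and 5.79% lower. The mutant arrays lay wholly above the wild-type arrays on 6 of the 59 and wholly below on 11, where those shares over the whole array were 10.9% and 9.38%. The list was drawn up with this contrast known, so these shares are a description. In limma's adjusted p the Fdft1 probe set stood at 0.0482, just inside the threshold, and the nearest outside it was an Idi1 probe set at 0.0958.

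**Figure D1:**
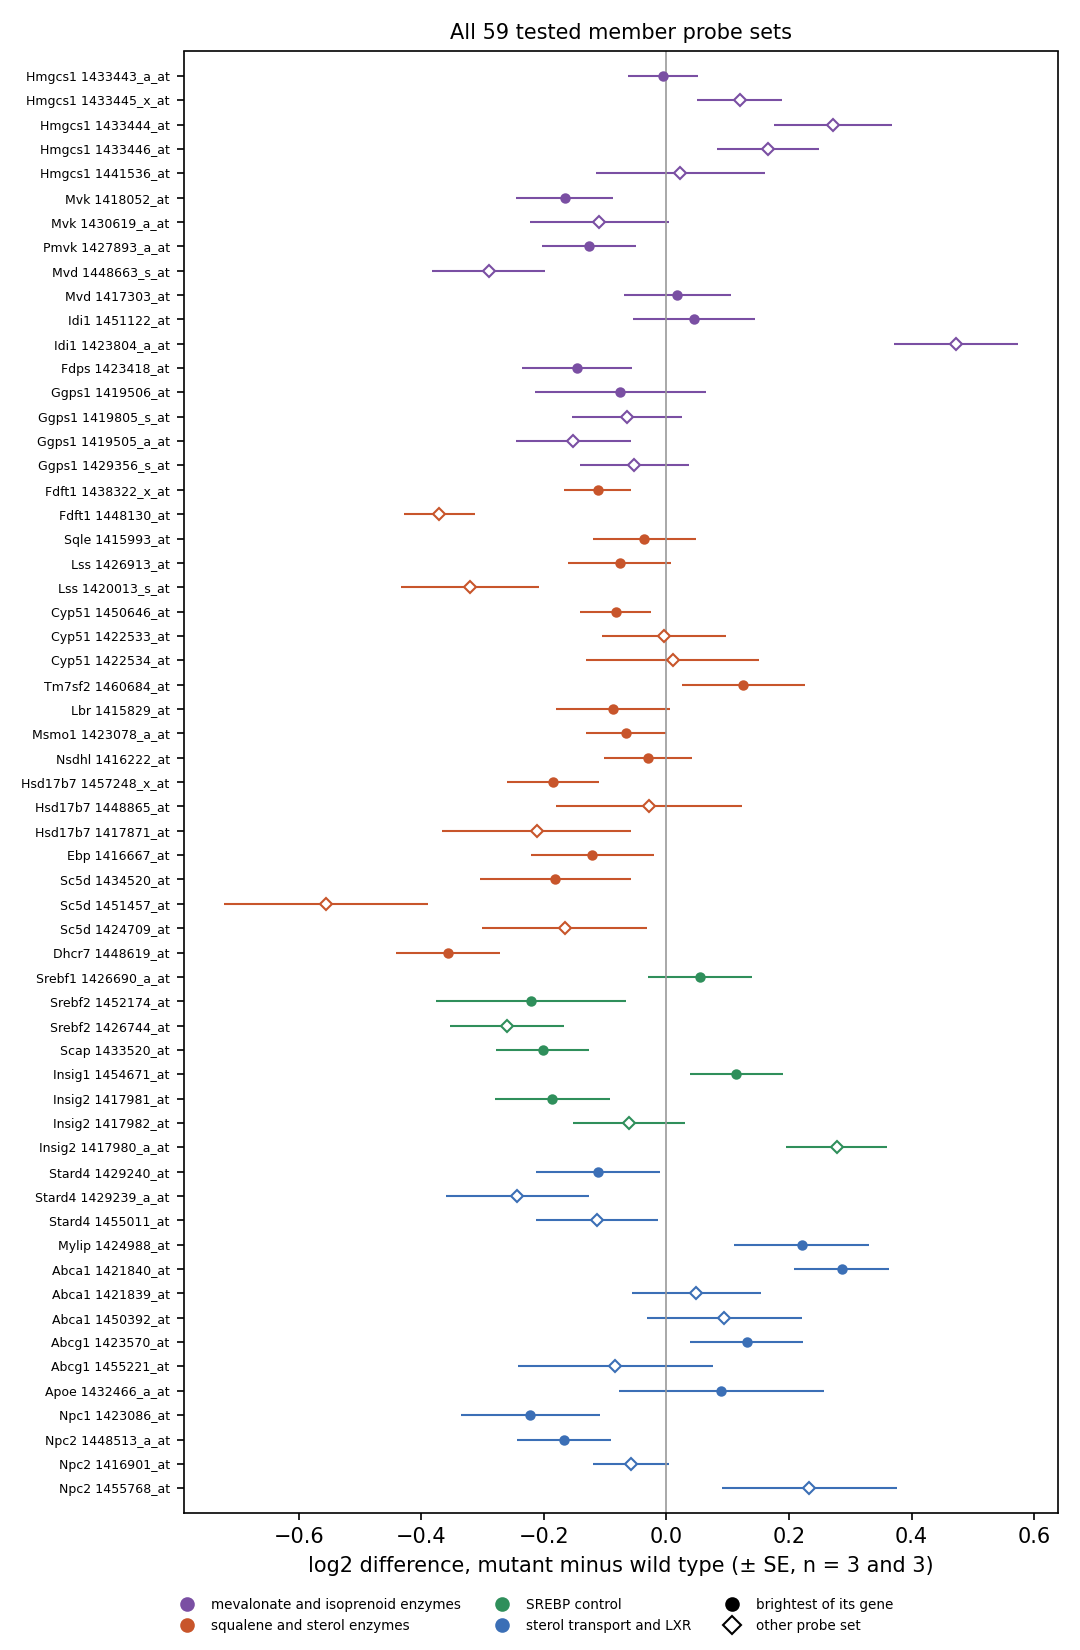
Log2 difference, mutant minus wild type, of each of the 59 tested probe sets with its SE (n = 3 and 3), coloured by role, filled circles for the brightest probe set of a gene and open diamonds for its others. Differences ran from -0.56 for an Sc5d probe set to 0.47 for an Idi1 probe set, and 40 of the 59 were below 0.

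Fdft1 encodes squalene synthase, the enzyme that joins farnesyl diphosphates into squalene. Its probe set 1448130_at read 1381, 1355 and 1280 in wild-type arrays 1 to 3 and 1034, 1002 and 1059 in mutant arrays 1 to 3. All 3 mutant values were below all 3 wild-type values, with means of 1339 ± 52.4 and 1032 ± 28.3 (SD, n = 3) and a log2 difference of -0.37 ± 0.06 (SE). The second bright probe set, 1438322_x_at, read 1416, 1411 and 1327 against 1276, 1285 and 1276. There too the groups were apart, but the difference was smaller, at -0.11 ± 0.06. The other Fdft1 probe sets were below the filter, 1438919_x_at at 1.21 to 3.79 in wild-type and 4.23 to 8.69 in mutant arrays, and 1438918_at at 0.482 to 1.21 over all 6. On 1448130_at the difference stayed between -0.42 and -0.35 under every alternative run, whereas its place inside the threshold was lost when any 1 of the 6 arrays was left out.

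The enzymes that feed Fdft1 went both ways, and signs differed among the probe sets of some genes. On the brightest probe sets Mvk, Pmvk and Fdps read lower, Idi1 and Mvd slightly higher, and Hmgcs1 hardly differed. Hmgcs1, the cytosolic HMG-CoA synthase that SREBP2 is known to induce, had 5 tested probe sets. The brightest, 1433443_a_at, read 3908, 3771 and 3582 in wild-type and 3657, 3825 and 3728 in mutant arrays, a log2 difference of -0.01 ± 0.06 with interleaved groups, above 0 without mutant array 1 or wild-type array 1. On 1433444_at the values were 2262, 2713 and 2918 against 2941, 3387 and 3176. Here every mutant array was above every wild-type array, with a log2 difference of 0.27 ± 0.10 (limma adjusted p = 0.27). Its remaining probe sets had 0.12, 0.17 and 0.02, all with overlapping groups.

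Idi1 encodes isopentenyl diphosphate isomerase, and its probe sets parted further. On the brightest, 1451122_at, wild-type arrays read 791, 623 and 623 and mutant arrays 644, 718 and 729. These groups overlapped, with a log2 difference of 0.04 ± 0.10 that turned below 0 with median centring and without wild-type array 2 or 3. On 1423804_a_at the wild-type values were 152, 195 and 168 and the mutant values 235, 231 and 264. This was the largest difference upward among the 59, 0.47 ± 0.10, without overlap between groups and not past the threshold (limma adjusted p = 0.0958).

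Mvd, mevalonate diphosphate decarboxylase, gave opposite signs. Its brightest probe set, 1417303_at, read 146, 125 and 132 in wild-type and 139, 139.6 and 129 in mutant arrays, a log2 difference of 0.02 ± 0.09 that turned below 0 with median centring and without wild-type array 2. Its other probe set, 1448663_s_at, read 138, 145 and 131 against 104, 122 and 105. That pair of groups did not overlap, and the difference was -0.29 ± 0.09 (limma adjusted p = 0.229). 

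The kinases of the pathway read slightly lower. Mvk, mevalonate kinase, read 136, 132 and 139.5 in wild-type and 116, 119 and 124 in mutant arrays, a log2 difference of -0.17 ± 0.08 without overlap (limma adjusted p = 0.405). Pmvk, phosphomevalonate kinase, read 292, 278 and 262 against 235, 259 and 263, a difference of -0.13 ± 0.08. Its groups overlapped because mutant array 3 reached the lowest wild-type array.

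Prenyl diphosphate synthases come next. Fdps, farnesyl diphosphate synthase, makes the substrate of Fdft1 and read 1700, 2047 and 1669 in wild-type and 1570, 1547 and 1760 in mutant arrays. The log2 difference was -0.15 ± 0.09 and the groups overlapped. Ggps1, which draws farnesyl diphosphate away toward protein prenylation, had 4 tested probe sets with differences of -0.15 to -0.05. In all, 5 of the 7 measured mevalonate and isoprenoid genes read lower and 2 higher on their brightest probe set, with a median of -0.08 log2 units, where all 12573 tested genes had a median of -0.01. The count of lower ones ran from 4 to 7 over the alternatives, reaching 7 of 7 with median centring and without wild-type array 2, and falling to 4 without mutant array 1 or wild-type array 1. The group median was -0.03 without wild-type array 2 and -0.04 without wild-type array 3. It stayed at -0.08 when the filter was changed, whereas the median of all tested genes moved with the filter. That median was 0.01 with no filter and -0.03 with a filter at the 60th percentile, so brighter genes read slightly lower in general.

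**Figure D2:**
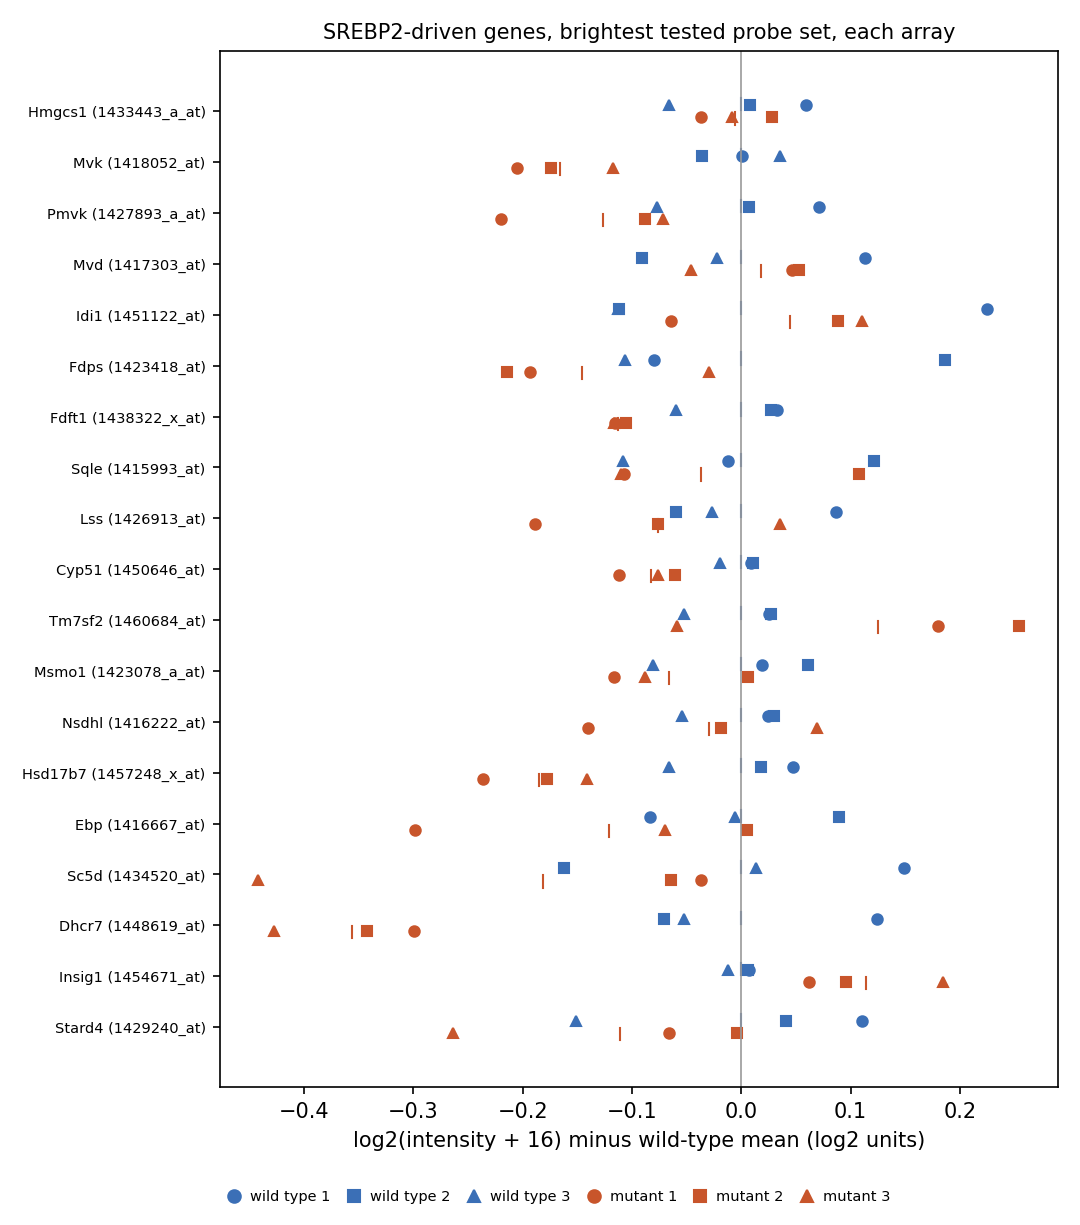
Each array's log2(intensity + 16) minus the wild-type mean, in log2 units, for the brightest tested probe set of the 19 measured SREBP2-driven genes, with wild-type arrays in blue, mutant arrays in orange and short bars at group means. The mutant mean was below the wild-type mean in 15 of the 19 genes. Groups were apart downward in Mvk, Fdft1, Cyp51, Hsd17b7 and Dhcr7 and upward in Insig1. Of all 12573 tested genes 51.7% read lower, with groups apart downward in 1260 and upward in 1374.

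From squalene synthase onward the enzymes read mostly lower. Of the 12 genes from Fdft1 to Dhcr7, 11 read lower on the brightest probe set and 1, Tm7sf2, read higher, and the count of lower ones stayed at 10 or 11 under every alternative run. Without Fdft1, whose fall chose the pathway, 10 of 11 read lower, and 9 or 10 over the alternatives, with a median of -0.08 that was -0.04 without mutant array 1. The median was -0.09 log2 units, and -0.05 without mutant array 1. None of the 12 passed the threshold on that probe set by limma's adjusted p, and 2 had an unadjusted p under 0.05, both lower. Of all 12573 tested genes 51.7% read lower and 28 passed. At an unadjusted p under 0.05, 756 of all tested genes were lower and 951 higher.

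The enzymes that lead from squalene to lanosterol had small differences on their brightest probe sets. Sqle, squalene monooxygenase, read 1044, 1147 and 975 in wild-type and 977, 1136 and 975 in mutant arrays. The groups interleaved, with a log2 difference of -0.04 ± 0.08 that turned above 0 without mutant array 3 or wild-type array 2. Lss, lanosterol synthase, read 255, 229 and 235 against 208, 226 and 246, also overlapping, at -0.08 ± 0.08. A dimmer Lss probe set, 1420013_s_at, read 101, 98.0 and 104 against 87.7, 64.9 and 82.1. On it the groups did not overlap and the difference was -0.32 ± 0.11 (limma adjusted p = 0.267).

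Demethylation of lanosterol followed. Cyp51, lanosterol demethylase, read 520.2, 521 and 510.1 in wild-type and 477, 495 and 489.7 in mutant arrays. The groups were apart by a small log2 difference of -0.08 ± 0.06, and on its other probe sets, at -0.0038 and 0.01, they overlapped. Msmo1, methylsterol monooxygenase, read 770.3, 794 and 718 against 699.9, 763 and 714, a difference of -0.07 ± 0.07 with overlap. Nsdhl, the decarboxylating sterol dehydrogenase encoded on the X chromosome, read 579, 581 and 547 against 514, 561 and 597. Mutant array 3 held its highest value, so the groups overlapped at -0.03 ± 0.07, above 0 without mutant array 1.

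Hsd17b7, the sterol ketone reductase, read 212, 207 and 195 in wild-type and 171, 179 and 184 in mutant arrays on its _x_at probe set. All mutant arrays were below all wild-type arrays, with a log2 difference of -0.19 ± 0.07 (limma adjusted p = 0.324). Its other tested probe sets had -0.03 and -0.21 with overlap. Among the sterol reductases Tm7sf2 read 124, 124 and 116 against 139, 148 and 116, a difference of 0.13 ± 0.10. Mutant array 3 lay at the level of the lowest wild-type array, so the groups overlapped. Lbr, which also anchors chromatin at the nuclear lamina, had -0.09 ± 0.09, which was near 0 without wild-type array 3.

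The last steps held the largest downward differences among the 59 outside Fdft1. Ebp, the sterol isomerase, also X-linked, read 152, 173 and 161 in wild-type and 128, 162 and 153 in mutant arrays, overlapping at -0.12 ± 0.10. Sc5d, the sterol desaturase, read 307, 244 and 278 against 268, 262 and 198 on its brightest probe set, also overlapping, at -0.18 ± 0.12. Its probe set 1451457_at read 291, 284 and 209 against 216, 135 and 171. The single overlap there was mutant array 1 above wild-type array 3, with a log2 difference of -0.56 ± 0.17 (limma adjusted p = 0.204). The third Sc5d probe set had -0.17, so all 3 pointed the same way. Dhcr7, the reductase that completes cholesterol from its immediate precursor, read 219, 189.6 and 192 in wild-type and 159.5, 154 and 145 in mutant arrays. Its groups were apart, with means of 200.4 ± 16.4 and 153 ± 7.57 (SD, n = 3). The log2 difference was -0.36 ± 0.09, with limma adjusted p = 0.123 and from 0.0924 to 0.391 over the alternatives, and so it was not past the threshold in any of them.

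Among the genes that control SREBP processing, none passed the threshold. Srebf2, which encodes SREBP2, read 337, 302 and 243 in wild-type and 316, 221 and 217 in mutant arrays on its brightest probe set, a log2 difference of -0.22 ± 0.15 with overlap. On its second probe set, 1426744_at, it read 142, 145 and 148 against 109, 133 and 114. The groups were apart there, at -0.26 ± 0.09 (limma adjusted p = 0.272). Scap, the escort of SREBPs, read 278, 269 and 245 against 236, 219.8 and 225. That was lower in 3 of 3 mutant arrays without overlap, at -0.20 ± 0.08 (limma adjusted p = 0.294). Srebf1, whose product mainly drives fatty acid genes, read 102, 95.5 and 101 against 103, 108 and 102, a difference of 0.05 ± 0.08 with overlap.

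The INSIG genes, whose proteins retain SCAP, differed in sign. Insig1, itself an SREBP target, read 152, 152 and 150.2 in wild-type and 159, 163 and 175 in mutant arrays. The mutant values were all above, at 0.11 ± 0.08 (limma adjusted p = 0.551). Insig2 had -0.19 ± 0.09 and -0.06 ± 0.09 on its brighter probe sets and 0.28 ± 0.08 on 1417980_a_at. This last read 102, 106 and 112 against 129, 138 and 131, apart upward (limma adjusted p = 0.201). The median over the 5 control genes was -0.19, and 0.01 when each gene's tested probe sets were averaged. Both medians were the value of Insig2, whose probe sets differed in sign.

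Sterol transport and LXR target genes went both ways. Abca1, the exporter that loads cholesterol onto apolipoproteins, read 469, 551 and 509 in wild-type and 627, 659 and 588 in mutant arrays. Every mutant array was above every wild-type array, with a log2 difference of 0.29 ± 0.08 (limma adjusted p = 0.166). Its other probe sets had 0.05 and 0.09 and overlapped. Abcg1, a second exporter, had 0.13 ± 0.09 without overlap on its brighter probe set and -0.08 ± 0.16 with overlap on its dim one. Mylip, the LXR-induced ligase that marks lipoprotein receptors for degradation, had 0.22 ± 0.11, with mutant array 3 at 95.3 inside the wild-type range of 81.9 to 97.8.

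Apoe, the main apolipoprotein of the brain, varied more between arrays of a group than between groups. It read 1339, 1814 and 1172 in wild-type and 1223, 1684 and 1669 in mutant arrays, a log2 difference of 0.09 ± 0.17, which turned below 0 without wild-type array 3. Stard4, a sterol carrier driven by SREBP2, read 211, 200.1 and 173 against 185, 193 and 159 on its brightest probe set. The groups overlapped at -0.11 ± 0.10, and its other probe sets had -0.24 and -0.11. Npc1 and Npc2, which pass cholesterol out of lysosomes, had -0.22 ± 0.11 and -0.17 ± 0.08 with overlapping groups, and the other tested Npc2 probe sets had -0.06 and 0.23. The median of the 7 transport genes was 0.09, but -0.05 without wild-type array 3, 0.01 without mutant array 2 and 0.02 without mutant array 3, so no direction was stable for this group.

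**Figure D3:**
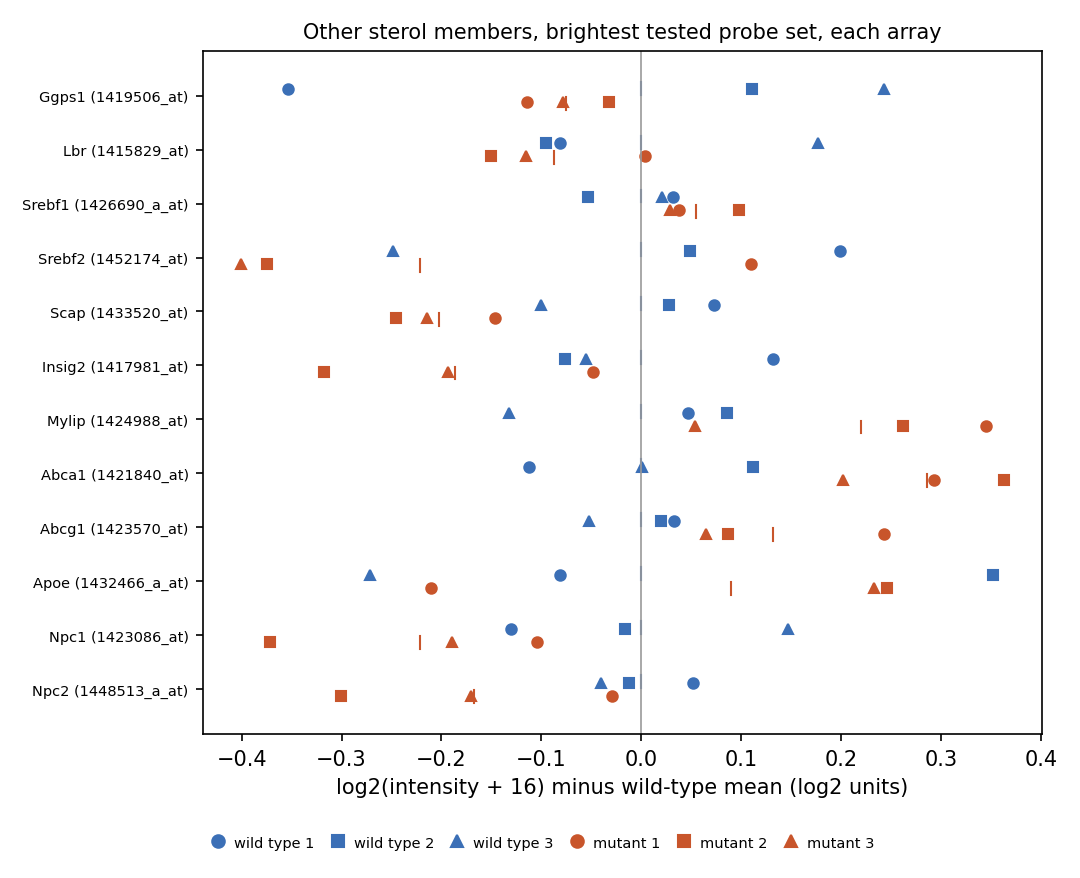
Each array's log2(intensity + 16) minus the wild-type mean, in log2 units, for the brightest tested probe set of the 12 measured genes not counted as SREBP2-driven, with wild-type arrays in blue, mutant arrays in orange and short bars at group means. Groups were apart upward in Abca1 and Abcg1 and downward in Scap, while Apoe spread widely within both groups. Among all 12573 tested genes the groups were apart upward in 1374 and downward in 1260.

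The question of whether the SREBP2-driven genes moved together was read array by array. Of the 19 measured, 15 read lower and 4 higher in the mutant, a median of -0.08 log2 units, and -0.08 without Fdft1. Over all tested genes 51.7% read lower. The count of lower ones ran from 13 to 17 over the alternatives, and the median from -0.14 with median centring to -0.04 without mutant array 1, and it was -0.13 with each gene's tested probe sets averaged. Set against the mean of the wild-type arrays, the median gene of this group lay at 0.03, 0.01 and -0.05 in wild-type arrays 1 to 3 and at -0.12, -0.02 and -0.07 in mutant arrays 1 to 3. Mutant array 2 was thus above wild-type array 3, and the groups overlapped. For the 12 squalene and sterol enzymes the medians were 0.02, 0.02 and -0.05 in wild-type and -0.12, -0.06 and -0.10 in mutant arrays, so every mutant array lay below every wild-type array, by a narrow margin between mutant array 2 and wild-type array 3. Without Fdft1 these 11 genes had -0.12, -0.06 and -0.09 in mutant arrays against -0.05 in the lowest wild-type array, and the groups stayed apart. All 19 enzymes together were apart too, at -0.06 or lower in mutant arrays and -0.05 or higher in wild-type arrays, but without Fdft1 mutant array 2 (-0.047) lay above wild-type array 3 (-0.052). The lists were drawn up with this contrast known, so these medians are a description.

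The SREBP2-driven genes of single arrays were often on 1 side of the mean of their own group. In wild-type array 3, 17 of the 19 read below the wild-type mean, and in wild-type array 1, 16 read above it. Wild-type array 2 had 13 above and 6 below. Mutant array 2 had 16 of the 19 above the mutant mean, mutant array 1 had 14 below it, and mutant array 3 was close to even, with 10 above and 9 below. Of all 12573 tested genes, 6426 were below in wild-type array 3 and 6253 above in wild-type array 1. In mutant array 2, 6524 of them were above, and in mutant array 1, 6469 were below. Median deviations from the own group's mean ran from -0.05 to 0.03 log2 units. The lowest, at -0.05, compares with the difference of -0.08 between groups. As the 19 values of an array share 1 RNA sample and 1 scaling factor, they are not independent.

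**Figure D4:**
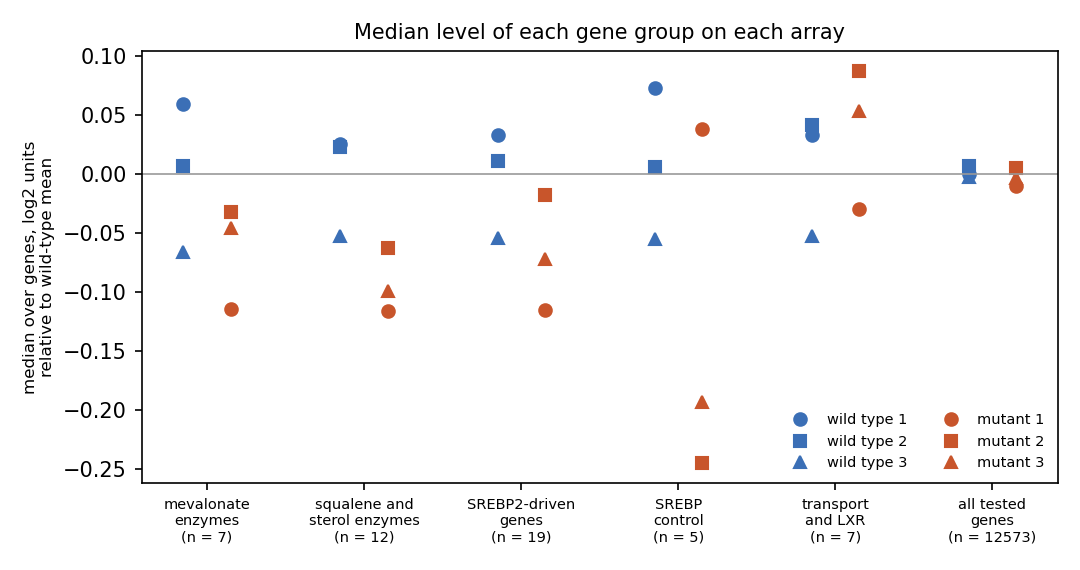
Median over the genes of each group of log2(intensity + 16) minus the gene's wild-type mean, in log2 units, for each of the 6 arrays, with wild type in blue and mutant in orange. All tested genes ran from -0.01 to 0.01, the SREBP2-driven genes from -0.12 to 0.03 with overlapping groups, and SREBP control genes were lowest in mutant arrays 2 and 3.

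Probe sets of 1 gene often disagreed. Of the 31 genes, 16 had over 1 tested probe set and their log2 differences spanned a median of 0.24, against 0.21 over the 6199 such genes of the array. In 6 of the 16 (37.5%) the signs were mixed, against 58.8% of all such genes. The widest span was 0.46 in Insig2, followed by 0.43 in Idi1, 0.40 in Npc2 and 0.39 in Sc5d. In Stard4, Ggps1, Srebf2, Sc5d, Mvk, Lss, Fdft1 and Hsd17b7 every tested probe set read lower, and in Abca1 and Idi1 every one read higher, though the brightest of Idi1 turned with median centring and without wild-type array 2 or 3. The brightest of Ggps1 turned to 0.05 without wild-type array 3.

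Related lipid genes outside the list gave no call. Of 14 genes listed for sterol uptake, turnover and SREBP cleavage, 10 were measured and 4 had no singly named probe set. Of the 10, 0 passed limma's adjusted p, 7 read higher and 3 lower, with a median of 0.03 and 1 at an unadjusted p under 0.05. The largest differences were in the lipoprotein receptor genes Lrp8 (-0.21) and Lrp1 (-0.18). Lrp1 was apart downward and Lrp8 overlapped, while Mbtps2 (0.14) was apart upward. Of 12 fatty acid synthesis genes 0 passed, 4 read higher and 8 lower, with a median of -0.07 and 4 lower at an unadjusted p under 0.05. These 4 were Acly (-0.14), Fads2 (-0.17), Elovl5 (-0.17) and Elovl6, each apart downward. At that level 756 of all 12573 tested genes were lower and 951 higher. Groups were apart downward in 1260 and upward in 1374 of all tested genes. Scd2, the brightest of the fatty acid genes, was apart upward by a narrow margin (0.13), at 3137 to 3229 against 3232 to 3632. Elovl6, a fatty acid elongase that SREBP1 is known to induce, read 522, 451 and 469 in wild-type and 389, 411 and 339 in mutant arrays. Its groups were apart at -0.33 ± 0.09 (limma adjusted p = 0.165). Scd1, a desaturase, had -0.18 with overlapping groups.

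Markers of some brain cell types also differed between the groups. The summed intensity of 9 of 9 endothelial markers was 1802 to 1875 in wild-type and 1542 to 1622 in mutant arrays, without overlap. Of these markers 6 read lower and 3 higher. Slco1c1 (-0.75), Cldn5 (-0.43), Kdr (-0.41) and Tek (-0.26) were lower without overlap. Flt1 and Tie1 were lower with overlap, and Slc2a1 (0.11), Pecam1 (0.02) and Cdh5 (0.29) were higher with overlap. The summed intensity of 5 of 6 choroid plexus markers was 6023 to 6724 against 6837 to 7138, also without overlap. Most of that sum was Ttr, at 5741 to 6321 against 6420 to 6732, and the other 4 tested markers each overlapped, while Kl was below the filter at no more than 11.9. Summed markers of astrocytes and radial glia, 10 of 10, were 8668 to 9772 against 9771 to 10679, overlapping by a narrow margin, with 7 of the 10 higher and 3 lower. Among them Vim passed the threshold upward (0.45), whereas Nes was lower without overlap (-0.30, limma adjusted p = 0.207) and Hes5 and Aldh1l1 were lower with overlap. Oligodendrocyte markers, 6 of 8, overlapped at 1308 to 1717 against 1431 to 1919, and Mag was below the filter. The summed neuronal markers overlapped as well, at 18140 to 18458 against 18341 to 18824, with 5 higher and 7 lower. Among them Gad1 (0.31), Neurod6 (0.32), Tbr1 (0.36) and Stmn2 (0.09) were higher without overlap, and Gad2 (-0.27) and Slc17a6 (-0.10) lower without overlap. Summed pericyte markers overlapped, 7 of 8 at 996 to 1349 against 940 to 1080, though 6 of the 7 read lower and 1 higher. Atp13a5 (-0.51) and Pdgfrb (-0.25) were lower without overlap. Markers of microglia and macrophages overlapped in sum, 8 of 8 at 701 to 800 against 763 to 813. Of these 6 read higher and 2 lower, and Lyz2 (0.41) was higher without overlap. Their part in the sterol gene values was not tested.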

How the data were processed

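Whole-brain RNA of 3 wild-type and 3 Foxf2 mutant embryos was measured on 1 array each, with groups and replicate numbers from the labels. The deposited values are MAS5 intensity values made by the authors, per the submitters' processing notes (the sources used here name no version). Each deposited column had a mean of 100.0 once 2% of its values were trimmed at either end, so values were not normalized again. Scaling hides any change in total RNA, and dim MAS5 values scatter widely on a log scale.

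Gene names came from the platform annotation, which can be old, and only probe sets with 1 gene were named. Log2(intensity + 16) was fitted in R 4.3.3 with limma 3.58.1 (lmFit, eBayes with a mean-variance trend over 45037 probe sets), two-sided, and adjusted by Benjamini-Hochberg over the 27022 at or above the 40th percentile of mean log2 value, an intensity of about 13.2. Called means an adjusted p under 0.05. The fit was tested on simulated data. A gene was represented by its tested probe set with the highest mean. Every gene of the list is described, with values by array for Fdft1, the SREBP2-driven genes, Srebf1, Srebf2 and Scap, and genes with an unadjusted p under 0.05. In the related lipid lists the 2 largest differences, the genes with an unadjusted p under 0.05 and those without overlap are named. Mutant arrays 1 to 3 and wild-type arrays 1 to 3 were each left out in turn. Other alternatives covered offset, filter, normalization, variance model, replicate block, probe set choice and promoter window. The members and lists were chosen with earlier results of these data known. Precision is limited by the number of arrays.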

Additional observations from a re-analysis of the deposited data

How the results depend on the processing

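The 99 higher and 6 lower calls over the whole array moved to 169 and 12 with offset 1, 61 and 3 with offset 64, 51 and 1 with no filter, and 0 and 0 without the variance trend. They were 210 and 15 with the variance prior taken from tested probe sets, an alternative chosen after seeing the data. Median centring left 50 higher and a filter at the 60th percentile gave 158 higher. Leaving out 1 array gave 0 to 34 higher and 0 lower. The 1 lower call among sterol genes, Fdft1, became 0 with offset 64, with no filter, without the trend and without any 1 array (range 0 to 0), and stayed 1 otherwise. Calls of higher members were 0 throughout.

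Median centring, which moved the median of all tested probe sets from -0.0065 to -0.06, took the median log2 difference to -0.14 for the squalene and sterol enzymes, -0.14 for all enzymes, -0.14 for SREBP2-driven genes and -0.13 for these without Fdft1. With each gene's tested probe sets averaged, the medians were -0.12 for the enzymes, 0.010 for SREBP control and 0.024 for transport. Without 1 array the transport median ran from -0.046 to 0.14. Within 100 bases of the start, 0 of the 27 genes held TCACNCCAC, down from 1, and 15 held GGGCGG, down from 23, since the window is shorter. The cause of the other changes was not tested.

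Same-numbered arrays deviated together with correlations of 0.19, 0.13 and 0.09, and every array correlated best with its own number in the other group, a hint from the data and not from the design. The replicate block gave 201 higher and 19 lower calls over the whole array and changed no call among the sterol genes.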
